A study of Scyliorhinus canicula with 3 samples.

Results

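The genes described here code for ion exchangers and cation-chloride cotransporters of 6 solute carrier families, measured in single nuclei of the shark retina. They were chosen by symbol: every annotated gene of the *slc4*, *slc8*, *slc9*, *slc12*, *slc24* and *slc26* families whose symbol carries a member number, except *slc9a5* and *slc4a3*, with at least 10 unique molecular identifiers (UMIs, one per captured RNA molecule) in the nuclei retained. All 24 matching symbols passed, with 87 UMIs for the least detected (*slc24a5*) and 49167 for the most (*slc8a3*), out of 23782 genes outside the mitochondrial genome. The set holds 6 *slc12a* genes (*slc12a1*, *slc12a2*, *slc12a3*, *slc12a4*, *slc12a8* and *slc12a9*), 3 *slc24a* genes (*slc24a1*, *slc24a3* and *slc24a5*), 3 *slc8* genes, 2 *slc4a* genes, 4 *slc9a* genes and 6 *slc26a* genes. Features that the annotation gives only a locus number were not analysed here, so that the KCl cotransporter *slc12a5* of mature neurons and the exchangers *slc24a2* and *slc24a4* have no value in the text.

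Cation-chloride cotransporters of the SLC12 family set the chloride content of a cell: NKCC1, encoded by *slc12a2*, brings chloride in with sodium and potassium, and the KCC proteins, among them KCC1 (*slc12a4*), let it out with potassium. In the vertebrate retina the balance decides whether GABA and glycine hyperpolarise or depolarise a neuron. SLC24 and SLC8 proteins expel calcium in exchange for sodium, with cotransport of potassium in SLC24, and SLC24A1 is known as the exchanger of the rod outer segment, where it clears the calcium that enters through the cyclic nucleotide-gated channel. SLC4, SLC9 and SLC26 proteins move bicarbonate, protons, sulphate and other anions.

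The samples were 3 retinas, one from each of 3 female juveniles of the small-spotted catshark, *Scyliorhinus canicula*, of 11.0, 10.5 and 11.1 cm total length (libraries 1, 2 and 3). The animals came from a public aquarium, and with no treatment or genotype given they form a single condition, so that the comparisons run between cell classes and the animals are the replicates. Nuclei were isolated from frozen tissue and profiled by droplet-based 3′ single-nucleus RNA sequencing, with intronic reads counted. After the published limits on UMIs, genes and mitochondrial share, 6053, 4426 and 10154 nuclei remained, with median depths of 3400, 2194 and 2032 UMIs.

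Removal of 708 nuclei called doublets and of 3 clusters that came mostly from one library each (2345 nuclei) left 17580 nuclei in 23 clusters. In the largest of the 3 (1470 nuclei) 85.3% were from library 3, and its best match was the list of rod markers, with 4 of 12 raised. The 24 genes were taken out of the data before clustering, so that none of them shaped a cluster it is compared in. Marker genes named 19 clusters in 10 classes: rod-like (3989 nuclei), photoreceptor (PR) precursor-like (3703), horizontal cell (HC)-like (273), bipolar cell (BC)-like (1252), GABAergic (1871), cholinergic (522) and glycinergic (1267) amacrine cell (AC)-like, retinal ganglion cell (RGC)-like (1152), Müller glia (MG)-like (879) and retinal progenitor cell (RPC)-like (406). A further cluster of 831 nuclei is called the *pmela*+ cluster: 5 of 9 markers of pigmented cells were raised in it, but so were 9 markers of progenitors, and 4 of its 10 leading genes also led the erythrocyte-like cluster that was removed, so that it was given no cell type name. The other 3 clusters (1435 nuclei) had no name and entered only the sum of remaining nuclei. In PR precursor-like nuclei 3 of 6 precursor markers were raised, and in rod-like nuclei 12 of 12 rod markers. Between libraries, 1, 16 and 15 cell barcodes were shared in the 3 pairs. Levels are UMIs per 1000000 UMIs (CPM) summed over the nuclei of a class in a library, given as mean ± SD over 3 libraries, and they serve to compare classes for one gene, not genes with each other. Fewer nuclei expressing a gene and less RNA per nucleus cannot be told apart in such a sum. Near-empty droplets, of which each library had 26771 to 34947, served as an estimate of the level of free RNA. They are the barcodes at or below the median UMI count of all barcodes with at least 200 detected genes. Barcodes with fewer genes were not used, and whether some of those used held a nucleus was not tested.

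**Figure D1:**
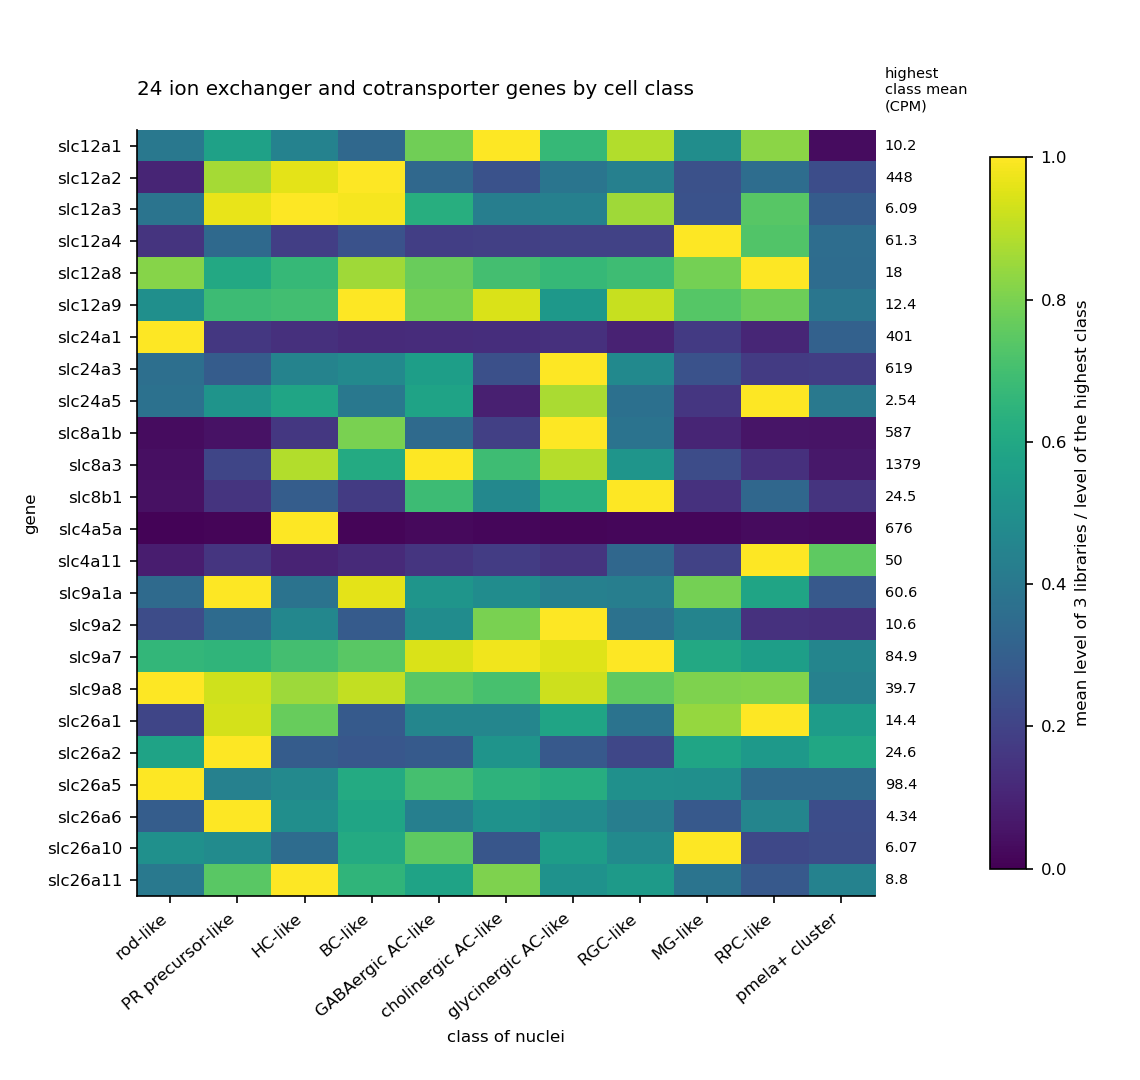
Heat map of the 24 genes (rows, by family) over 10 cell classes and the *pmela*+ cluster (columns). Colour is the mean CPM of 3 libraries divided by that of the gene's highest class, whose CPM stands at the right. *slc24a1* was bright in rod-like nuclei (401 CPM) and *slc4a5a* in HC-like nuclei (676 CPM), and *slc8a3* in AC-like and HC-like nuclei.

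Each gene had its own distribution over classes, and few were restricted to one. The class with the highest mean was the same in all 3 libraries for 8 of 24 genes, and for 4 (*slc4a5a*, *slc12a4*, *slc24a1* and *slc24a3*) the range over libraries in that class did not overlap the range in the second class. Neither count was made over all genes, so whether the members differ from other genes in this was not tested. In at least one class 11 genes reached 50 CPM, and 5 stayed under 10 CPM in every class (*slc12a3*, *slc24a5* and 3 *slc26a* genes). Each class was tested against the sum of all other nuclei of the same library with edgeR's quasi-likelihood test, with the library as a block. A call needed a Benjamini-Hochberg adjusted p under 0.05 over all genes tested and an absolute log2 fold change of at least 1. Over the 11 comparisons there were 18 calls of a higher and 36 of a lower level (7.0% and 14.0% of 257 values of members), from 14 of the 24 genes, and of all genes 5.43% were higher and 6.60% lower. The split turned in a fit that gave every class the same weight, with 29 higher and 16 lower calls. These were 12.55% and 6.93% of 231 values of members. The split of all genes turned as well, to 7.47% higher and 4.60% lower. That fit also left out the unnamed clusters and took the sums of all classes together, so that the part of the weight alone was not tested.

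The photoreceptor exchanger *slc24a1* (chromosome 12, 2419305 to 2527435, assembly sScyCan1.1) was highest in rod-like nuclei, with no overlap with any other class. Its level in rod-like nuclei was 513, 364 and 327 CPM in libraries 1, 2 and 3 (401 ± 98.0 CPM, n = 3). In the *pmela*+ cluster it was 106, 136 and 134 CPM, and the other 9 classes lay between 39.1 ± 20.6 CPM (RGC-like) and 68.9 ± 21.9 CPM (MG-like). The lowest rod-like library was above the highest library of every other class. Near-empty droplets held 137 CPM on average, so that, of the named classes and the *pmela*+ cluster, only rod-like nuclei were above that level in all 3 libraries, and of all UMIs of the gene in kept nuclei 55.6% were in rod-like nuclei. The removed cluster of 1470 nuclei, whose best match was the rod markers, had 139 CPM in library 3, where droplets had 121 CPM.

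Of the 23 members tested in rod-like nuclei 1 was higher and 7 were lower, where 6.40% of all genes tested were higher and 16.5% lower. *slc24a1* was the one called higher, by 2.93 ± 0.30 (log2 fold change ± SE, edgeR adjusted p = 2.8e-04), or 7.63-fold, and it was higher in each of the 3 libraries. It was lower in 7 other classes (HC-like, BC-like, all 3 AC-like, RGC-like and RPC-like nuclei), by at most 1.67 on the log2 scale. In those tests rod-like nuclei were part of the remaining nuclei, and with every class given the same weight none of the 7 lower calls was kept while the rod-like call was (3.09). Without library 1 the lower calls in HC-like (-0.67), BC-like (-0.86) and AC-like nuclei (-0.93, -0.79 and -0.76 for GABAergic, cholinergic and glycinergic) were lost, and without library 2 those in HC-like (-1.21) and BC-like nuclei (-1.13). With each nucleus thinned to 1000 UMIs, *slc24a1* was found in 29.8% ± 5.95 (SD, n = 3) of rod-like nuclei. It was found in 7.14% ± 2.14 of PR precursor-like nuclei and in 5.70% ± 1.27 of HC-like nuclei. Without thinning the shares were 53.7%, 9.54% and 23.7%, at median depths of 1547 to 2976 UMIs in rod-like, 1118 to 1900 in PR precursor-like and 5250.5 to 6861 in HC-like nuclei. Thinning left out 0, 144 and 363 rod-like nuclei, 0, 432 and 410 PR precursor-like nuclei and no HC-like nucleus.

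The 3 rod-like clusters were not equal. Cluster 7, led by the phototransduction genes *guca1b*, *gngt1* and *pde6gb*, had 884, 716 and 358 CPM of *slc24a1* (652 ± 269). Cluster 4 had 522, 391 and 352 CPM (422 ± 89.5) and cluster 1 had 378, 254 and 291 CPM (307 ± 63.6). In each library the order was the same, although the ranges over libraries overlapped. Cluster 7 was also shallow, with a median depth 0.465 times that of its own libraries, and 71.4% of its nuclei were from library 3. An unnamed cluster of 759 nuclei, whose leading genes included *asmt* and *eys*, had 166, 213 and 190 CPM, above droplets and between rod-like and PR precursor-like nuclei.

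Rod phototransduction genes were those whose pattern was most like that of *slc24a1*. Over 33 sums (11 groups in 3 libraries) and 7008 genes with a symbol, the Pearson correlation of log2(CPM + 10) was highest with *cnga1b* (0.97), the alpha subunit of the rod cyclic nucleotide-gated channel, followed by *grk1a* (0.97), rhodopsin kinase, and *guca1a* (0.97), an activator of guanylate cyclase. These correlations are descriptions, since the sums share libraries and their rod-like sums carry most of the spread. *cnga1b*, *grk1a* and *guca1a* are all markers on which rod-like nuclei were named, so that this likeness was in part set by the naming. Near-empty droplets held *cnga1b* as well (961 CPM).

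*slc24a3* (chromosome 1, 195757582 to 196255761) codes for a potassium-dependent exchanger known from neurons and smooth muscle in mammals, and had another distribution. Glycinergic AC-like nuclei had 775, 456 and 625 CPM (619 ± 160), above every library of GABAergic AC-like nuclei, the next class, with 421, 296 and 323 CPM (347 ± 66.0). RGC-like (293 ± 26.5), BC-like (291 ± 44.8) and HC-like (276 ± 57.5) nuclei followed with overlapping ranges, and rod-like nuclei had 225 ± 42.4 CPM. Cholinergic AC-like (151 ± 26.4), RPC-like (108 ± 15.0) and *pmela*+ nuclei (113 ± 17.2) were near the 132 CPM of droplets.

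Against the remaining nuclei *slc24a3* was higher in glycinergic AC-like nuclei by 1.41 ± 0.11 (edgeR adjusted p = 1.2e-04), 1 of 4 members higher and 2 lower out of 24 in that class, where 2.84% of all genes were higher and 3.04% lower. It was lower in RPC-like nuclei (-1.57 ± 0.23) and in the *pmela*+ cluster (-1.07 ± 0.24, a call lost without library 1, at -0.80). Among glycinergic AC-like nuclei, clusters 14 and 15 had 776 ± 233 and 636 ± 186 CPM, and cluster 17 had 374, 335 and 328 CPM, below both in every library. The genes most like it over the 33 sums were *kcnt2* (0.85), a sodium-activated potassium channel, *tsnare1* (0.85) and *mao* (0.84), monoamine oxidase.

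The log2 ratio of *slc24a1* to *slc24a3* UMIs, which compares classes and not the genes, was 0.83 ± 0.39 in rod-like nuclei and 0.15 ± 0.16 in the *pmela*+ cluster. It was -1.50 ± 0.42 in PR precursor-like and -3.58 ± 1.22 in glycinergic AC-like nuclei, and negative in each library of every class other than rod-like nuclei and the *pmela*+ cluster. *slc24a5*, which acts in melanin synthesis in zebrafish and humans, was at most 2.54 CPM in any class. It was 1.02 ± 1.00 CPM (1, 0 and 1 UMIs) in the *pmela*+ cluster, where markers of pigmented cells were raised, so that a difference was not detectable at this depth.

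**Figure D2:**
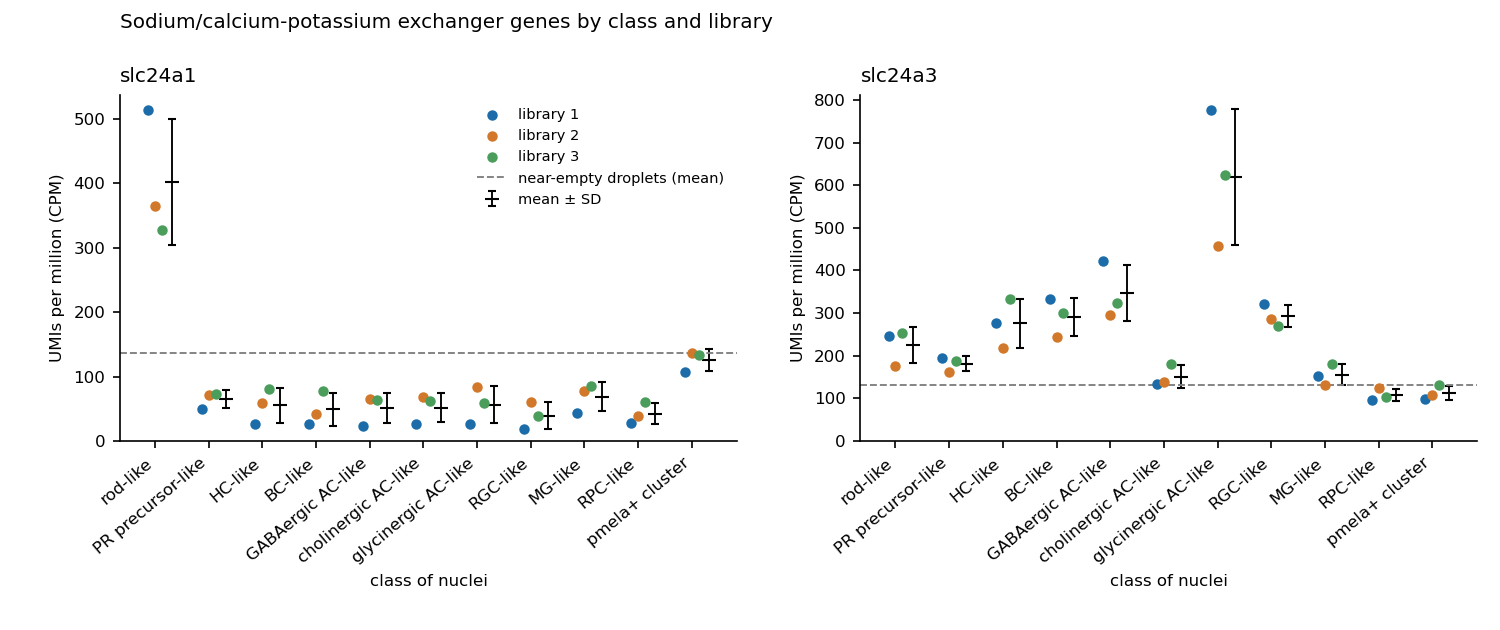
Levels of *slc24a1* (left) and *slc24a3* (right) in CPM by class. Points are libraries, bars are mean ± SD of 3 libraries, and the dashed line is the mean of near-empty droplets (137 and 132 CPM). Rod-like nuclei stand alone for *slc24a1*, and glycinergic AC-like nuclei are highest for *slc24a3*, with most neurons above the line.

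Among the chloride cotransporters *slc12a2* and *slc12a4* differed in their highest classes, which were BC-like, HC-like and PR precursor-like nuclei for the first and MG-like and RPC-like nuclei for the second, and both were lowest in rod-like nuclei. *slc12a2* (NKCC1, chromosome 8, 67227190 to 67494863) had 590, 414 and 340 CPM in BC-like nuclei (448 ± 129), 694, 249 and 346 CPM in HC-like nuclei (430 ± 234) and 740, 193 and 232 CPM in PR precursor-like nuclei (388 ± 305). These 3 groups overlapped, and in each of them library 1 was the highest. Library 1 also had the largest mitochondrial share of all UMIs (11.9%, against 4.82% and 3.32%) and the deepest nuclei, and their part in its higher levels was not tested. RGC-like (196 ± 42.4), glycinergic AC-like (175 ± 58.5), RPC-like (161 ± 45.2) and GABAergic AC-like nuclei (152 ± 31.9) came next.

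Rod-like nuclei were the lowest, with 50.8, 40.6 and 47.1 CPM (46.2 ± 5.14), under every library of every other class and under the 84.9 CPM of droplets. *slc12a2* was lower in rod-like nuclei by 2.10 on the log2 scale (SE 0.20, edgeR adjusted p = 2.1e-04). It was higher in BC-like nuclei by 1.57 ± 0.16 (adjusted p = 9.7e-04), where 2 of 23 members were higher and 3 lower and 4.35% of all genes were higher and 3.51% lower. None of the 3 lower calls in BC-like nuclei was kept without library 1, without library 2 or with classes weighted equally (5 higher and 0 lower). Lower calls of all genes fell as well, from 622 of 17740 to 455 of 18164, 100 of 18950 and 239 of 15398 in these fits. With classes weighted equally 948 of all genes were higher. In HC-like nuclei *slc12a2* was higher by 1.07 ± 0.18 (edgeR adjusted p = 0.0077), 1 of 2 members higher and 1 lower of 23, against 3.15% and 2.12% of all genes. The HC-like call was lost without library 1 (0.98), without library 2 (1.18, adjusted p = 0.067) and without library 3 (1.01, adjusted p = 0.058), while the BC-like call was kept in each case. Fitted without the library as a block, neither passed (adjusted p = 0.28 for HC-like and 0.099 for BC-like nuclei). HC-like and BC-like nuclei differed by -0.21 ± 0.24 (adjusted p = 0.68). In PR precursor-like nuclei the log2 fold change was 0.87 ± 0.23, under the size needed for a call.

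**Figure D3:**
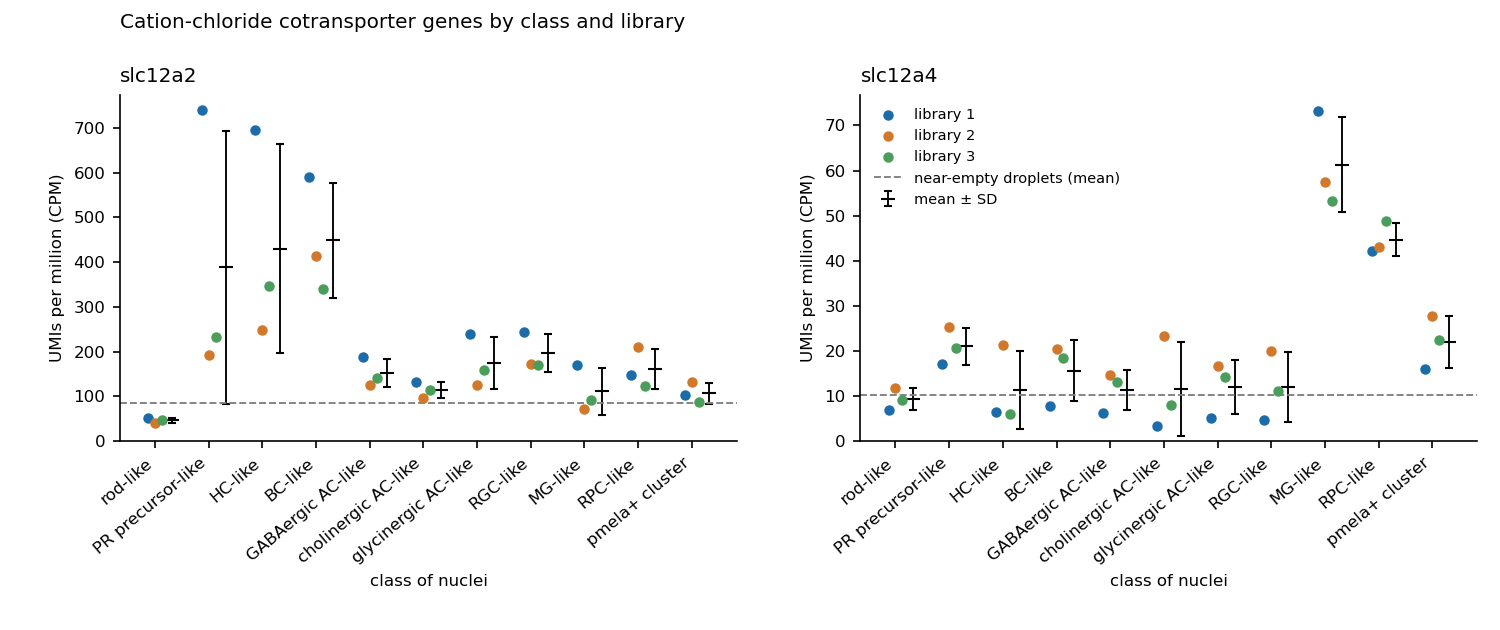
Levels of *slc12a2* (left) and *slc12a4* (right) in CPM by class, with points, bars and dashed line as for the exchangers (droplets at 84.9 and 10.2 CPM). *slc12a2* is high in BC-like, HC-like and PR precursor-like nuclei and lowest in rod-like nuclei (46.2 CPM), and *slc12a4* is highest in MG-like (61.3 CPM) and RPC-like nuclei (44.7 CPM).

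BC-like nuclei held *slc12a2* unevenly. Cluster 18 had 996, 798 and 547 CPM (780 ± 225) and cluster 10 had 685, 447 and 353 CPM (495 ± 172). Cluster 19, whose leading genes included *trpm1a*, coding for the transduction channel of ON bipolar cells, and *prkcea*, had only 65.9, 102 and 103 CPM (90.3 ± 21.1). All 3 libraries of cluster 19 were below all those of the other clusters. The same cluster differed in further exchangers: *slc8a3* was at 83.7, 274 and 448 CPM, against 1024 CPM or more in every library of clusters 10 and 18. *slc9a1a*, the housekeeping sodium-proton exchanger NHE1, went the other way, with 118, 118 and 71.8 CPM in cluster 19 and 28.5 ± 3.02 CPM in cluster 10. Cluster 10, led by *neto1l*, a relative of the kainate receptor subunit NETO1, stood apart in *slc8a1b* (1332, 851 and 850 CPM), which was at 139 CPM or less in both other clusters, and in *slc24a3* (479 ± 113 CPM). The BC-like clusters were found without these genes, and no test was run between them.

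**Figure D4:**
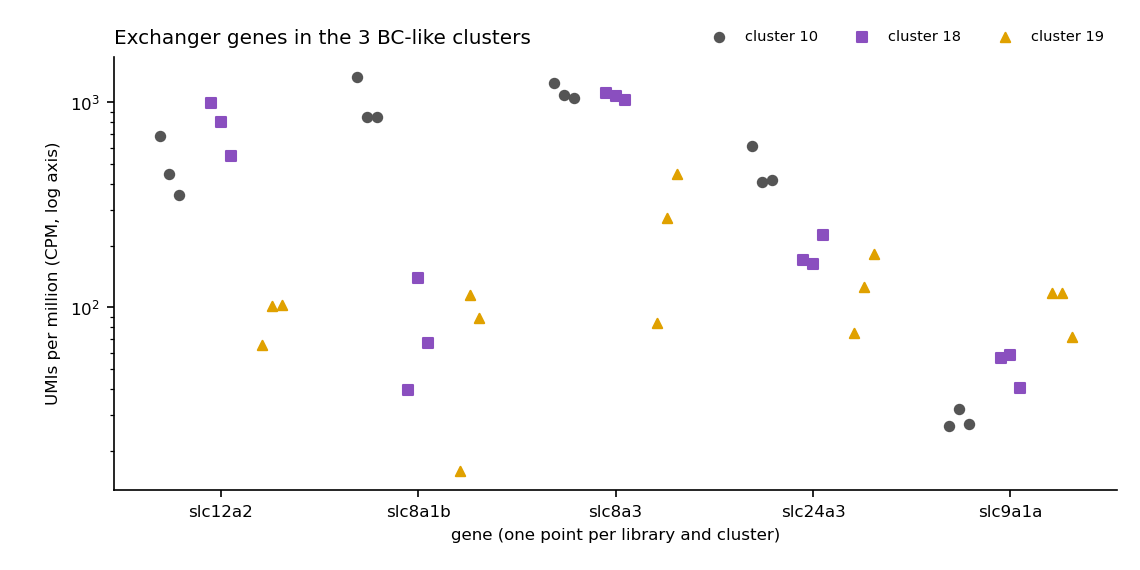
CPM (log axis) of 5 exchanger genes in the 3 BC-like clusters, one point per library. Cluster 19 (triangles) is lowest for *slc12a2* and *slc8a3* and highest for *slc9a1a*, and cluster 10 (circles) is highest for *slc8a1b* and *slc24a3*.

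*slc12a4* (KCC1, chromosome 9, 60606796 to 60823299) had 73.3, 57.4 and 53.3 CPM in MG-like nuclei (61.3 ± 10.6) and 42.2, 43.1 and 48.8 CPM in RPC-like nuclei (44.7 ± 3.58). No library of MG-like nuclei fell in the RPC-like range, and both classes were above the *pmela*+ cluster (22.0 ± 5.81) and PR precursor-like nuclei (21.0 ± 4.09). All other classes were between 9.29 CPM (rod-like) and 15.5 CPM (BC-like), near the 10.2 CPM of droplets. In MG-like nuclei it was higher by 2.14 ± 0.23 (edgeR adjusted p = 1.6e-05), the one member higher beside 4 lower of 23, where 7.27% of all genes were higher and 4.73% lower. With classes weighted equally *slc12a4* was still called and none of the 4 lower members was, and without library 2 there were 2 lower. Of all genes 157 of 15398 were lower with classes weighted equally and 721 of 18770 without library 2, against 834 of 17633 in the main fit. In RPC-like nuclei *slc12a4* was higher by 1.47 ± 0.29 (edgeR adjusted p = 0.0011), 1 of 2 higher beside 5 lower of 23, against 6.33% and 8.67% of all genes. MG-like and RPC-like nuclei differed by 0.56 ± 0.27, which was not called (adjusted p = 0.24).

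The genes most like *slc12a4* over the 33 sums were *efhd1* (0.899), *prex1* (0.896) and *slc1a6* (0.896), of which *slc1a6* codes for a glutamate transporter and was among the leading genes of the MG-like cluster. Those most like *slc12a2* were *dok6* (0.87), *sema6dl* (0.82) and *prkcea* (0.79), a protein kinase C gene. *prkcea* was also a leading gene of cluster 19, the BC-like cluster with the least *slc12a2*. Likeness over classes therefore need not hold between clusters of a class. The log2 ratio of *slc12a2* to *slc12a4* UMIs was 5.37 ± 1.64 in HC-like and 4.93 ± 1.14 in BC-like nuclei, 3.95 ± 1.31 in PR precursor-like and 2.34 ± 0.54 in rod-like nuclei. It was 1.81 ± 0.48 in RPC-like and 0.77 ± 0.44 in MG-like nuclei, which had the lowest ratio in each library. Library 1 had the highest ratio in all classes other than RPC-like nuclei.

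The other *slc12a* genes were low. *slc12a8* was between 6.38 CPM (*pmela*+) and 18.0 CPM (RPC-like), *slc12a9* between 4.84 CPM (*pmela*+) and 12.4 CPM (BC-like), and *slc12a3*, the thiazide-sensitive NaCl cotransporter of the kidney in mammals, between 1.54 CPM (MG-like) and 6.09 CPM (HC-like). Their ranges overlapped from class to class and none was called. *slc12a1*, the kidney NKCC2 in mammals, was highest in cholinergic AC-like nuclei (5.57, 17.9 and 7.23 CPM). It was called lower in the *pmela*+ cluster (edgeR adjusted p = 0.025), where it had 0, 0 and 1 UMIs, a call that rests on few UMIs and was lost without library 2 (adjusted p = 0.25).

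Both plasma membrane sodium-calcium exchangers were highest in an AC-like class, GABAergic for *slc8a3* and glycinergic for *slc8a1b*, and lowest in rod-like nuclei. *slc8a3* (NCX3, chromosome 2, 108607616 to 109326531) was highest in GABAergic AC-like nuclei, with 1684, 1242 and 1212 CPM (1379 ± 265), followed by glycinergic AC-like (1225 ± 188) and HC-like nuclei (1221 ± 71.7), whose ranges overlapped. It was 319 ± 136 CPM in MG-like, 286 ± 49.4 CPM in PR precursor-like and only 29.3, 46.5 and 96.6 CPM in rod-like nuclei. Every rod-like library was at or under the 97.9 CPM of droplets and below every library of each neuronal class. *slc8a3* was called higher in GABAergic AC-like nuclei (1.34 ± 0.14, edgeR adjusted p = 8.5e-04) together with *slc8b1* (1.11 ± 0.20, and 0.87 without library 1), with 1 member lower of 24, where 3.92% of all genes were higher and 4.32% lower. Its call in glycinergic AC-like nuclei (1.03 ± 0.11), close to the size needed, was kept under 8 of 15 alternatives. It was lost without library 1 (0.90), and also, among others, without the library as a block and on nuclei of at least 2000 UMIs. In rod-like nuclei it was lower by 3.74 on the log2 scale (SE 0.34, adjusted p = 1.7e-04).

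*slc8a1b* (NCX1, chromosome 6, 33821317 to 34178212) had 876, 441 and 444 CPM in glycinergic AC-like nuclei (587 ± 250) and 590, 402 and 417 CPM in BC-like nuclei (470 ± 104), which overlapped. RGC-like (224 ± 57.6) and GABAergic AC-like nuclei (203 ± 21.2) came next, and rod-like nuclei were lowest at 6.99, 16.8 and 32.8 CPM. It was higher in glycinergic AC-like (2.04 ± 0.21) and BC-like nuclei (1.85 ± 0.15) and lower in 5 groups. HC-like nuclei had 13.0, 107 and 168 CPM, and their difference from BC-like nuclei (-2.59 ± 0.69) missed the threshold (edgeR adjusted p = 0.062). Within glycinergic AC-like nuclei, cluster 14, whose leading genes included *glra1* and *grm3*, had 1445, 634 and 623 CPM and cluster 17 had 706, 507 and 484 CPM, while cluster 15, with *slc17a8* (VGLUT3) among its leading genes, had 178, 156 and 189 CPM and was below both in every library. The mitochondrial exchanger gene *slc8b1* was highest in RGC-like nuclei (29.9, 28.0 and 15.7 CPM), where it was higher by 1.72 ± 0.22 (edgeR adjusted p = 2.1e-04). That class had 1 member higher and 3 lower of 24, and 6.49% of all genes were higher and 5.96% lower.

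Of the 24 genes *slc4a5a* (chromosome 26, 5813999 to 5931980), the homologue of a sodium-bicarbonate cotransporter gene of mammals, had the largest ratio between its highest class, HC-like nuclei, and the next (34.0). Its levels there were 1145, 509 and 373 CPM (676 ± 412), and in the next class, RPC-like nuclei, 9.12, 28.7 and 21.9 CPM (19.9 ± 9.95). The lowest HC-like library was above every other value in the set of classes, and the means of all other groups were under the 20.3 CPM of droplets. HC-like nuclei, 273 of 17580, held 62.7% of the gene's UMIs. *slc4a5a* was higher in them by 5.76 ± 0.42 (edgeR adjusted p = 7.3e-05), or 54.2-fold, and was at 5.09 without library 1, whose level was the highest. It was lower in 7 other classes, of which 2 (rod-like and PR precursor-like) were kept when each class had the same weight. The lower call in BC-like nuclei was lost without library 1 (-0.998) or 2 (-1.30, adjusted p = 0.13), that in cholinergic AC-like nuclei without library 1 (-0.74) or 2 (-1.35, adjusted p = 0.069), and that in MG-like nuclei without library 1 (-0.94). With nuclei thinned to 1000 UMIs, 50.4% ± 21.9 of HC-like nuclei had a UMI of it, against 0.717% to 2.05% of nuclei in the other groups. Without thinning the share was 91.6% in HC-like nuclei and 1.26% to 7.97% elsewhere.

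*slc4a11*, coding for a borate transporter homologue that carries protons and is known from the corneal endothelium in humans, had 83.2, 38.3 and 28.6 CPM in RPC-like nuclei (50.0 ± 29.1) and 68.2, 12.8 and 31.9 CPM in the *pmela*+ cluster (37.6 ± 28.2), which overlapped. It was higher in both, by 2.36 ± 0.37 and 2.12 ± 0.37 (edgeR adjusted p = 1.3e-04 and 1.1e-05). In the *pmela*+ cluster 1 member was higher and 4 were lower of 23, where 11.9% of all genes were higher and 9.64% lower and the median log2 fold change of all genes was -0.18. MG-like nuclei had less than RPC-like nuclei, by 2.10 on the log2 scale (SE 0.48, adjusted p = 0.021), a call lost without library 1 (-1.44). Without library 1 the RPC-like value against the rest was 1.52, still called.

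Of the sodium-proton exchangers *slc9a1a* was highest in PR precursor-like (43.7, 88.8 and 49.2 CPM) and BC-like nuclei (61.4, 69.8 and 43.1 CPM), whose ranges overlapped, and it was called in no class against the rest. *slc9a7*, an exchanger of the Golgi membrane in mammals, lay between 38.7 ± 16.2 CPM in the *pmela*+ cluster and 84.9 ± 6.51 CPM in RGC-like nuclei. The remaining *slc9a* gene lay between 17.5 and 39.7 CPM and was not called. *slc9a2* was scarce (10.6 ± 6.69 CPM in glycinergic AC-like nuclei) and was higher there by 1.41 ± 0.25 (edgeR adjusted p = 0.0050).

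Of the *slc26a* genes only *slc26a5*, which codes for prestin, the motor protein of outer hair cells in mammals and an anion transporter in other vertebrates, reached 50 CPM. It had 141, 97.2 and 56.8 CPM in rod-like nuclei (98.4 ± 42.3) and 78.0, 73.7 and 56.3 CPM in GABAergic AC-like nuclei, so that these overlapped, and 34.2 ± 1.02 CPM in RPC-like nuclei. Droplets had 45.8 CPM. It was called lower in RPC-like nuclei by 1.08 on the log2 scale (SE 0.25, edgeR adjusted p = 0.0043; -0.95 and no call without library 1), and its 0.90 ± 0.18 in rod-like nuclei was under the size for a call. The sulphate transporter genes *slc26a1* (1.14 ± 0.28, and 0.81 without library 1, where the call was lost) and *slc26a2* (1.37 ± 0.22) were higher in PR precursor-like nuclei, where 2 members were higher and 4 lower of 24, and 3.99% of all genes were higher and 9.88% lower. Their levels there were low, at 13.5 ± 4.95 and 24.6 ± 9.93 CPM. *slc26a1* overlaps another protein-coding gene, *idua*, and *slc9a1a* a further one on the assembly. The authors counted only reads assigned to a single gene, and how many reads in the shared stretches were lost was not examined. The remaining 3 *slc26a* genes were between 1.02 and 8.80 CPM in all classes and were not called.

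Cholinergic AC-like nuclei had no member called higher and 2 lower (*slc24a1* and *slc4a5a*) of 23, where 3.23% of all genes were higher and 4.33% lower. Neither lower call was kept without library 1 (1 other member higher and 0 lower), without the library as a block (0 and 0) or with classes weighted equally (2 higher and 0 lower), and without library 2 there was 1 lower. Of all genes 493 were higher and 527 lower of 18373 without library 1, and 378 and 233 of 17795 without the block. With classes weighted equally 836 were higher and 207 lower of 15398, and without library 2 there were 483 and 616 of 18740. The lower calls for the set were most numerous in rod-like nuclei: beside *slc12a2*, the exchangers *slc8a3*, *slc8a1b* (-3.42 ± 0.40), *slc8b1* (-2.82 ± 0.52), *slc4a5a*, *slc26a1* and *slc4a11* were lower there. Lower calls were most numerous there over all genes too, at 16.5% of those tested, against 9.88% or less in any other group. The call of *slc4a11* was lost without library 1 (-0.84) or 2 (-1.20), and that of *slc26a1* without library 3 (-1.47, adjusted p = 0.054). The median log2 fold change of the 23 members tested in rod-like nuclei was -0.48, against -0.02 for all genes.

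Finally, 3 pairs of related or neighbouring classes were compared directly. Between rod-like and PR precursor-like nuclei, which were named from markers of rods and of photoreceptor precursors, 2 of 19 members were higher and 4 lower in rod-like nuclei, where 8.26% of all genes were higher and 9.50% lower. The exchanger of the outer segment, *slc24a1*, was higher by 2.88 ± 0.24 (edgeR adjusted p = 6.5e-05), and *slc26a5* was higher by 1.39 ± 0.16 (adjusted p = 2.9e-04). *slc12a2* was lower by 2.58 on the log2 scale (SE 0.32, adjusted p = 4.1e-04) and by 2.01 without library 1, in which PR precursor-like nuclei had the most. *slc8a3* (-2.20 ± 0.29), *slc26a1* (-2.02 ± 0.38) and *slc9a1a* (-1.21 ± 0.22) were lower as well. The median depth of PR precursor-like nuclei was below that of rod-like nuclei in each library, and the share of depth in these differences was not tested beyond the fit on nuclei of at least 2000 UMIs, in which all 6 calls were kept. The call of *slc9a1a* was lost without library 2 (-0.89).

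Between HC-like and BC-like nuclei, which both meet the photoreceptor terminals, *slc4a5a* was higher (5.74 ± 0.47) and *slc9a1a* lower (-1.30 ± 0.26, edgeR adjusted p = 0.026) in HC-like nuclei among 15 members tested, where 4.66% of all genes were higher and 4.50% lower. Without library 2 the *slc9a1a* call was lost (-1.11, adjusted p = 0.15), as it was with log normalization before clustering (-1.08, adjusted p = 0.11) and without doublet removal (-1.03, adjusted p = 0.068), and without library 1 *slc4a5a* was at 5.07. Between MG-like and RPC-like nuclei *slc4a11* was the one member called of 15, where 5.96% of all genes were higher and 3.43% lower.

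**Figure D5:**
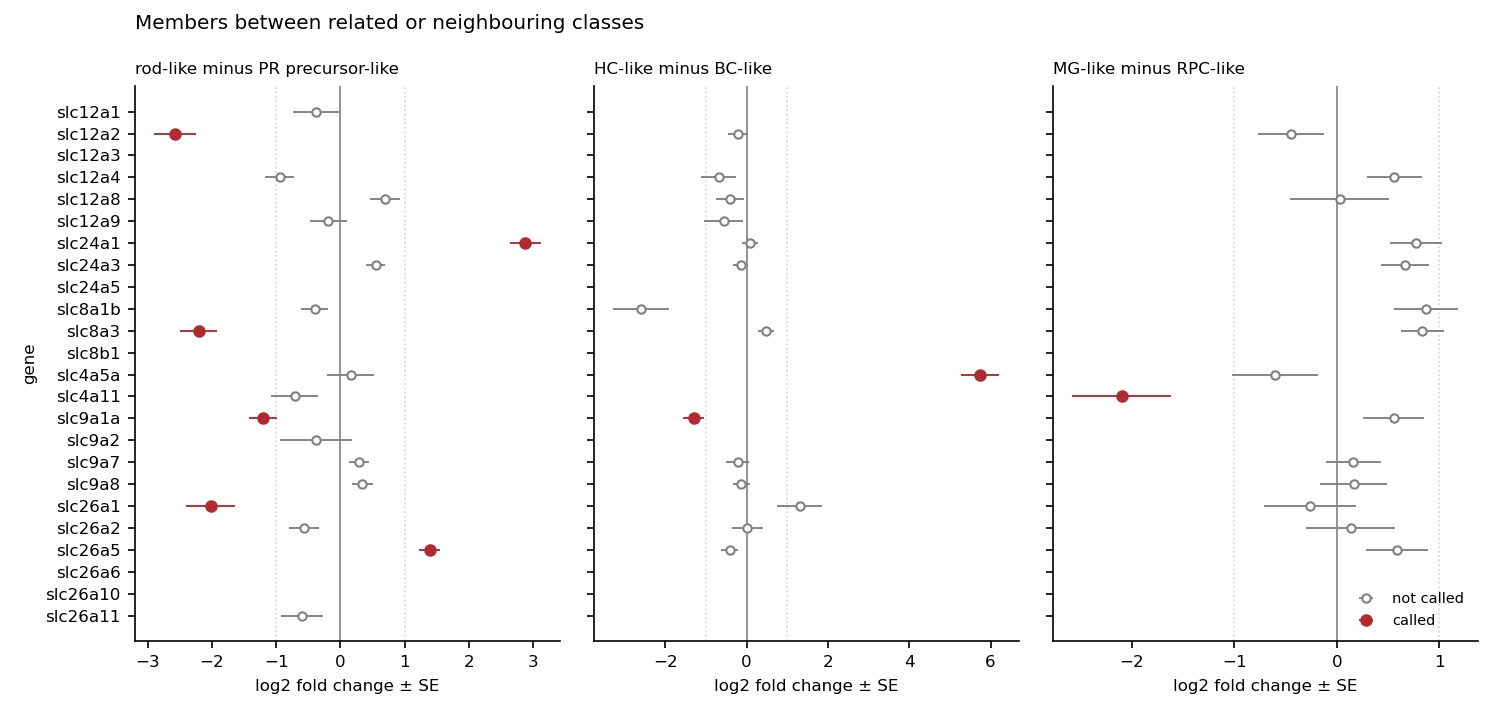
Log2 fold change ± SE (edgeR) of the members tested between rod-like and PR precursor-like (left), HC-like and BC-like (centre) and MG-like and RPC-like nuclei (right). Filled points passed the threshold, dotted lines mark a log2 fold change of 1 in either direction, and genes without a point were too low to test. *slc24a1* and *slc12a2* lie on opposite sides in the left panel (2.88 and -2.58).

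Genes that work with these transporters were taken from lists by symbol and tested in the same fits, with the same shares of all genes called. The list of WNK-pathway genes, which regulate SLC12 transporters by phosphorylation, held 9 genes: *wnk2*, *wnk4a*, the kinase gene *oxsr1b*, 2 *cab39* genes and 4 *klhl* genes that share the first letters of *klhl3*, an adaptor for WNK degradation. In rod-like, BC-like, cholinergic and glycinergic AC-like nuclei none of the 9 was called. In HC-like nuclei *klhl32*, one of the *klhl* genes matched by prefix only, was higher (730, 398 and 474 CPM, 2.03 ± 0.20), and in MG-like nuclei *wnk4a* was higher (8.14, 17.9 and 9.79 CPM, 1.15 ± 0.32, edgeR adjusted p = 0.024).

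Of 17 chloride channel genes, 16 were tested in rod-like nuclei, where 2 were higher and 5 lower. The largest differences were the lower *ano11* (-2.47 ± 0.28), *ano3* (-2.46 ± 0.20) and *clcn2c* (-1.79 ± 0.25). The 2 higher, named here after their values were seen, were the chloride-proton exchanger genes *clcn3* (452, 368 and 340 CPM, 1.20 ± 0.15) and *clcn5b* (1.05 ± 0.13). In BC-like nuclei the anoctamin genes *ano3* (152, 173 and 120 CPM, 2.30 ± 0.19) and *ano5a* (2.21 ± 0.19) were higher, and in RGC-like nuclei *ano11* (1.77 ± 0.17), *ano6* (1.26 ± 0.16) and *lrrc8c* (1.02 ± 0.25), a volume-regulated anion channel subunit, were higher. Of 6 carbonic anhydrase genes, whose enzymes supply bicarbonate and protons, *ca6* had 262, 251 and 209 CPM in HC-like nuclei (241 ± 28.1) and at most 5.19 CPM on average in another group. It was higher in HC-like nuclei by 6.49 ± 0.36 (edgeR adjusted p = 2.7e-05), in the class where *slc4a5a* was highest. *ca8*, a relative without enzyme activity, was higher in MG-like nuclei (64.2 ± 7.33 CPM, 3.34 ± 0.24).

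Of 5 ion pump genes, the calcium pumps *atp2a3* (3.62 ± 0.19) and *atp2b2* (2.20 ± 0.18) were higher in BC-like nuclei. The sodium-potassium pump subunit *atp1b3a* was lower there. Of the BC-like clusters, only cluster 19 had *atp2a3* among its leading genes, and its part in the class value was not tested. In RGC-like nuclei *atp1b3a* was higher (591, 997 and 1072 CPM, 1.95 ± 0.16) and *atp2a3* was lower. In rod-like nuclei *atp2b2* (-3.56 ± 0.31), *atp2a3* and *atp1b3a* were lower. Of the 2 cyclic nucleotide-gated channel genes, *cnga1b* was higher in rod-like nuclei (2.96 ± 0.25) and *cnga3a*, the cone channel subunit in mammals, was lower (-1.98 ± 0.31). In PR precursor-like nuclei *cnga3a* was called higher and *cnga1b* lower against the rest. Rod-like nuclei also had less *cnga3a* and more *cnga1b* than PR precursor-like nuclei, both called. These further calls are named here after they were seen. *cnga1b* is a marker on which rod-like nuclei were named, so that its call there is not independent of the naming.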

How the data were processed

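Nuclei of 3 libraries (one retina and one animal each) were sequenced on the 10x Genomics 3′ v3.1 platform. The deposited values were raw UMI counts per gene and barcode, made by the authors with STARsolo (STAR 2.7.10a) in the mode that counts exonic and intronic reads, on assembly sScyCan1.1, with no normalization, so that long and intron-rich genes gather more counts and levels of different genes cannot be compared. Of 29017 features, 37 are mitochondrial and were left out of sums.

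Barcodes were kept within the study's limits for each library (for example more than 1000 and fewer than 20000 UMIs, and more than 500 and fewer than 5500 genes, in library 1) and under 10% mitochondrial UMIs. Doublets were called by the share of artificial neighbours, a Python rewrite of DoubletFinder. Clustering used SCTransform and reciprocal PCA in Seurat 5.3.0 without the 24 genes, and clusters were named by marker lists. The rule that removed clusters mostly of one library was set after the clusters were seen. The genes and lists were chosen with earlier results of these data known. An oligodendrocyte-like cluster was not recovered.

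Counts were summed by class and library and tested with edgeR 4.0.16 (quasi-likelihood, TMM, filterByExpr) in R 4.3.3, with Benjamini-Hochberg adjustment over all genes tested. A call needed an adjusted p under 0.05 and an absolute log2 fold change of at least 1. The library is a block because the compared sums come from one animal. The p-values set the class difference within an animal against the variation of that difference over 3 animals, estimated in part from all genes. The text names each *slc12a* and *slc24a* gene, each other member called or at 50 CPM or more in a class, and up to 3 called genes of a partner list per class for rod-like, HC-like, BC-like, MG-like and RGC-like nuclei. The prefix used for *klhl3* also matched other *klhl* genes. A planned ratio of *slc12a2* to *slc12a5* was not analysed here, and the ratio to *slc12a4* took its place. Near-empty droplets were those at or below the median UMI count of all barcodes with at least 200 detected genes. Intervals are exact binomial intervals at 95% and cover counting error only. The edgeR test was run on simulated counts for HC-like nuclei against the rest and for rod-like against PR precursor-like nuclei. The simulation used the same gene profile for all libraries and a fixed dispersion, so that it held no difference between animals. Alternatives changed the block, the tool (DESeq2 1.42.0), filters, libraries, the weight of classes, clustering, doublets, mitochondrial limit and depth.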

Additional observations from a re-analysis of the deposited data

Results flagged for a closer look

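In the 3 clusters left out of the comparisons, each taken in the library that held most of it, 8 values with at least 3 UMIs stood above every class of that library. Values on fewer UMIs were not counted. The class values have counting error as well, for which no interval was computed, and none of these differences was tested. In the cluster of 755 nuclei, which resembled epithelium and came mostly from library 1, *slc12a4* was at 83.4 CPM (361 UMIs, 95% exact binomial interval 75.0 to 92.5), where the highest class of library 1, MG-like nuclei, had 73.3 CPM. *slc12a8* was at 30.0 CPM there (130 UMIs, 25.1 to 35.7), against at most 11.6 CPM in a class of library 1. *slc9a2* was at 11.1 CPM (48 UMIs, 8.18 to 14.7), against at most 3.08 CPM in a class of that library. In libraries 2 and 3 the highest class had 38.3 and 18.7 CPM of *slc12a8*. For *slc9a2* it had 15.8 and 13.0 CPM, both above the value in the removed cluster.

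In the cluster of 120 nuclei, which resembled erythrocytes and came mostly from library 1, *slc9a1a* was at 116 CPM (28 UMIs, 76.8 to 167; at most 61.4 CPM in a class). *slc26a2* was at 74.3 CPM (18 UMIs, 44.1 to 117; at most 32.9 CPM). *slc12a8* at 16.5 CPM (4 UMIs, 4.50 to 42.3) and *slc26a11* at 12.4 CPM (3 UMIs, 2.56 to 36.2) had intervals that held the highest class value, 11.6 and 10.0 CPM, so that no difference was detectable at this depth. The same holds for *slc24a5* at 2.44 CPM in the cluster of 1470 nuclei in library 3 (3 UMIs, 0.504 to 7.14; at most 1.92 CPM in a class). The values come from the library that held most of each cluster. The other libraries had 10 and 23 nuclei of the cluster of 755, in which *slc12a4* had 0 and 2 UMIs, and 1 and 5 nuclei of the cluster of 120, too few to check the levels. In the cluster of 1470 they had 93 and 123 nuclei, with 0 UMIs of *slc24a5* in both.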

How the results depend on the processing

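Over 15 alternatives for classes and 13 for pairs, 794 of 904 fitted values of called genes kept their direction and their side of the threshold, 110 kept the direction only, and none reversed. Under every alternative that gave a value 28 of 63 calls were kept. The calls against the rest, 54 in all, came to 32 with no replicate block (the pairing by animal), all of them among the 54, and the 9 calls between pairs of classes to 7. Leaving out one library gave 40 to 57 and 7 to 11 calls. Against the rest 4.45% to 5.16% of all genes were then higher and 5.41% to 6.87% lower. With classes weighted equally 45 calls were made, of which 33 were among the 54, and 7.47% of all genes were higher and 4.60% lower. The other alternatives gave 36 to 56, the lowest at the coarser clustering, where MG-like and RPC-like nuclei and the *pmela*+ cluster were not separate. In these 3.97% to 5.58% of all genes were higher and 5.56% to 6.77% lower. Log normalization of the pairs, chosen after seeing the data, gave 8 calls, all among the 9. A minimum of 100 UMIs left 23 of the 24 genes.

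With 3 animals, one condition and 273 HC-like nuclei, values near the threshold, as *slc12a2* in HC-like nuclei, depend on single libraries. Genes under 10 CPM rest on a few UMIs per class and library. Class names are rebuilt from marker lists, and members without a symbol are not covered.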

Other observations

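Among classes outside the paragraphs above, the RPC-like nuclei and the *pmela*+ cluster had the lowest median log2 fold change over the members tested, at -0.57 and -0.72, against -0.06 and -0.18 for all genes. In BC-like nuclei the median was 0.24, against -0.03. The smaller RGC-like cluster (462 nuclei, of which 68.6% were from library 3) had 122 ± 64.8 CPM of *slc8a3*, and the larger one (690 nuclei) had 789 ± 59.6 CPM, with no overlap between libraries. The median depth of the smaller one was 0.5 times that of its libraries and of the larger one 2.95 times, and the part of depth in this difference was not tested.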
